A study of Homo sapiens with 24 samples.

Results

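The comparison described here is that of parental PPC1 cells exposed to LCL521 with parental PPC1 cells left without it. It covers 12 of the 24 RNA-seq libraries of the series, 6 in each group, and all 48162 genes of the deposited count table, of which 13277 had enough reads to be tested. PPC1 cells are a line of human prostate cancer, and LCL521 is a pro-drug that inhibits acid ceramidase, the lysosomal enzyme encoded by ASAH1. Both groups were plated on day 1 and harvested on day 5 by trypsinization, and LCL521 was present at 5 µM for the last 5 hours. The study's methods place the same exposure on day 3. The labels name no vehicle for the cells without LCL521. Neither group was irradiated or filtered, unlike the polyploid giant cancer cells (PGCC) that make up the other 12 libraries. PGCC had received 8 Gy, and their harvest added a 20 micron filter that retains large cells. All conditions were harvested together in each of 6 runs of the experiment, so libraries with the same replicate number belong to 1 run. The question put to these cells was which mRNAs move within hours of acid ceramidase inhibition in a population that is known to go on dividing under it.

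Acid ceramidase cleaves ceramide into sphingosine and a fatty acid inside lysosomes. Cholesterol taken up as LDL passes through the same compartment, where NPC1 exports it. When sterols in the endoplasmic reticulum are low, the SREBP transcription factors are released and raise the genes for sterol synthesis, LDL uptake and fatty acid desaturation. INSIG1 is both a target of SREBP and the protein that retains it, which makes its mRNA a widely used readout of the pathway. Lysosomes also carry the Rag GTPases and the folliculin complex, through which TFEB, TFE3 and MITF are kept out of the nucleus. These factors bind the E-box CACGTG in promoters of lysosomal genes. YAP acts with TEAD factors, which bind GGAATG and drive CTGF and CYR61, and its activity falls when cells lose tension or contact with their support.

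Stretches of the promoters of 8 genes are printed because these genes carry the changes described below and hold an E-box or a TEAD motif near their start. Sequences are from RefSeq, build GRCh38.p14, on the strand of the gene. Capitals mark the motif, and its first base is counted from the RefSeq start of the gene. The first 7 genes rose and the last, CTGF, fell. INSIG1 lies on the plus strand at chr7:155297811-155297840 with the motif at -56, RRAGC on the minus strand at chr1:38859867-38859896 with the motif at -112, and NEU1 on the minus strand at chr6:31862930-31862959 with the motif at -126. FNIP1, on the minus strand, is shown at chr5:131797175-131797204 (site 1, at -175) and chr5:131797094-131797123 (site 2, at -94). CLCN7 lies on the minus strand at chr16:1475058-1475087 (motif at -47), CLCN6 on the plus strand at chr1:11806159-11806188 (motif at -20) and CREBRF on the plus strand at chr5:173056211-173056240 (motif at -129). CTGF, on the minus strand, is shown at chr6:131951524-131951553 (site 1, motif at -169) and chr6:131951454-131951483 (site 2, which holds a pair of motifs, the first at -104).
INSIG1: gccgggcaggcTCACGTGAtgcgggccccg
RRAGC: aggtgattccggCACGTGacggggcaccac
NEU1: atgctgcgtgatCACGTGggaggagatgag
FNIP1 site 1: ccccgcccctgcCACGTGacgggacccgcc
FNIP1 site 2: tccgcgcgccgcCACGTGatgcggcccccc
CLCN7: gccgtcgctcatCACGTGgccccgtcgcgc
CLCN6: gctcgagagggcCACGTGaccgtcccgggg
CREBRF: cccctccggcgaCACGTGacaggggtgccc
CTGF site 1: ttttcagacggaGGAATGctgagtgtcaag
CTGF site 2: gtggggaGGAATGcgaGGAATGtccctgtt

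Promoters of 250 bases before to 50 after the start were at hand for 49 of the 69 genes that rose and 33 of the 46 that fell, under 80% of either, so a comparison of motif shares is void and the shares only describe the promoters at hand. CACGTG, searched on both strands, lay in 11 of the 49 promoters of genes that rose (22.4%), in 3 of the 33 of genes that fell (9.09%), in 10.2% of those of all genes tested and in 7.43% of all 27305 promoters. INSIG1 and CLCN6 held the longer palindrome TCACGTGA, which contains CACGTG and lay in 1.97% of promoters of genes tested and 1.04% of all promoters. That of CLCN6 begins at base 3 after the start, outside the stretch printed above. GGAATG, on both strands, lay in 8 of the 49 (16.3%), 6 of the 33 (18.2%), 10.5% of genes tested and 14% of all promoters. A sterol element searched as TCACNCCAC was found in 1 promoter of the genes that rose, that of HIP1R. It lay in 0.908% of promoters of genes tested and in 1.15% of all promoters. A match of letters is a description of the promoter and not a measurement of binding.

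Each library held between 14835246 and 19906601 counts, and the medians were 17757402 without and 17023944 with LCL521. The 10 genes with the most reads took 4.92% to 6.54% of them, and 3 counts, used as the floor, were 0.151 to 0.202 CPM (counts scaled to a common library size), which covers counting error only. Epithelial markers summed to 1086 to 1386 CPM without and 1122 to 1569 CPM with LCL521. Of 8 prostate luminal markers, HOXB13 was abundant, while FOLH1, KLK2 and KLK3 had no read in any of the 12 libraries. Summed endothelial markers were at most 12.5 CPM. Summed leukocyte markers were at most 2.82 CPM, with 6 of 8 markers at 0 in all 12 libraries, and fibroblast markers lay between 49.3 and 127 CPM without and 51.9 and 111 CPM with LCL521. In bulk RNA a change in the share of a cell type and a change in RNA per cell cannot be told apart. The libraries of replicates 4 and 5 stood apart in both groups. GDF15, a secreted stress factor, had 1722 and 1398 CPM in parental replicates 4 and 5 and between 98.5 and 141 CPM in the other 4. Because both groups hold these replicates, values within them are given beside the results.

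LCL521 changed few genes in parental cells, and by small amounts. With the replicate number as a block, 115 of 13277 genes (0.866%) had a Benjamini-Hochberg adjusted p under 0.05 in the quasi-likelihood test of edgeR. Among them 69 (0.520%) rose and 46 (0.346%) fell. Counts of list members given below are to be read beside these shares. The lists were chosen with earlier results of these data known. The log2 fold changes of the genes that rose lay between 0.17 and 0.76 with a median of 0.31, and 6 exceeded 1.5-fold. The genes that fell had a median of -0.30, the strongest lay at -0.81, and 5 exceeded 1.5-fold. Over all genes tested the log2 fold change had a median size of 0.06, and 1648 of the 13277 had an unadjusted p under 0.05 in edgeR. Without the block no gene passed in edgeR or in DESeq2, and 71 and 83 genes had an unadjusted p under 0.05. The study, whose methods name DESeq2 and no replicate block, reported no significant change of any gene in parental cells.

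The changes were seen as shifts within a run more than as separate groups. Of the 69 genes that rose, 67 were higher with LCL521 in 6 of 6 runs and 2 in 5 of 6, where 3.61% of all genes tested were higher in 6 of 6. Of the 46 that fell, 42 were lower in 6 of 6 runs and 4 in 5 of 6, against 4.25% of all genes tested. Groups that did not overlap at all were rarer: 4 genes tested (0.0301%) lay higher in every library with LCL521 than in every library without it, among them INSIG1 and FAM46C, and 1 gene (0.00753%) lay lower. All 115 genes kept their direction in replicates 4 and 5 taken alone and in the other 4 taken alone. The genes were called on these same runs, so agreement between runs is largely fixed in advance and is no separate support. Replicates 1, 4, 5 and 6 each bore on the number of genes: 73 passed without replicate 1, 52 without replicate 4, 26 without replicate 5 and 71 without replicate 6. With replicates 4 and 5 both left out, 3 genes passed.

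**Figure D1:**
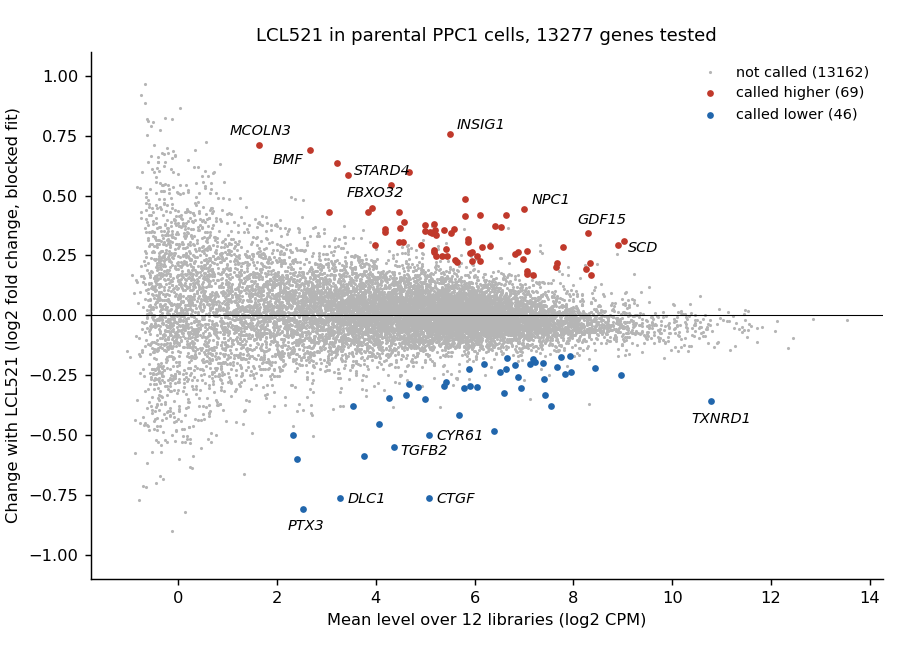
Change with LCL521 in parental cells (log2 fold change from the blocked fit, vertical axis) against the mean level over 12 libraries (log2 CPM, horizontal axis), 1 point a gene. The 69 genes called higher (red) and 46 called lower (blue) all lie within 0.81 of 0, and most genes not called (grey) lie closer to 0 at the same level.

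The mRNA of the enzyme that LCL521 inhibits did not pass the test. ASAH1 (ENSG00000104763) had 58.2, 62.8 and 69.9 CPM (lowest, median and highest of 6) without and 59.4, 65.1 and 78.5 CPM with LCL521. The ranges overlapped, and 5 of 6 runs were higher with LCL521. Its log2 fold change was 0.09 ± 0.05 (SE, 6 runs; edgeR adjusted p = 0.470). None of the 35 sphingolipid genes tested, of 42 listed, passed in edgeR or limma-voom, while 1 passed in DESeq2 and 1 in edgeR with a correction for the trend of the counts with gene length in each library, and 6 had an unadjusted p under 0.05. Their median log2 fold change was 0.01 beside 0.00 over all 13277 genes tested, of which 1648 had an unadjusted p under 0.05. SPHK1, the sphingosine kinase, had a log2 fold change of 0.09, and CERS2 and CERS6, which make ceramides of different chain lengths, had values near 0 and of 0.09. GALC and ORMDL2 had the lowest values of the list, -0.41 and -0.40 (edgeR adjusted p = 0.470 and 0.183). Among 9 genes for receptors and transport of sphingosine 1-phosphate, 4 were tested and none passed in edgeR, DESeq2 or limma-voom, nor had any an unadjusted p under 0.05.

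Genes of sterol sensing and LDL uptake held the strongest rise of all. INSIG1 (ENSG00000186480, hg19 chromosome 7 from 155089486 to 155101945) had 26.6, 33.8 and 45.1 CPM (lowest, median and highest of 6) without and 46.4, 52.4 and 79.3 CPM with LCL521. Every library with LCL521 lay above every library without it. The fold was 1.69 (95% interval 1.51 to 1.89), with a log2 fold change of 0.76 ± 0.08 (SE, 6 runs; edgeR adjusted p = 6.50e-04). A two-sided exact permutation test gave p = 0.03125 over the 64 sign changes of the 6 differences within runs and p = 0.00216 over the 924 divisions of 6 against 6 libraries, the smallest p that each allows. The rise was 0.95 in replicates 4 and 5 and 0.65 in the others, as mean differences within runs.

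STARD4, which carries sterol between membranes in the cytosol, had 6.99, 7.66 and 13.2 CPM (lowest, median and highest of 6) without and 10.1, 11.6 and 21.3 CPM with LCL521. It was higher in 6 of 6 runs although the ranges overlapped, with a log2 fold change of 0.59 ± 0.08 (SE, 6 runs; edgeR adjusted p = 0.00713). NPC1, the lysosomal cholesterol exporter, had 78.4, 93.9 and 172 CPM (lowest, median and highest of 6) without and 97.4, 121 and 271 CPM with LCL521. Replicates 4 and 5 were the highest 2 libraries in both groups, and the log2 fold change was 0.44 ± 0.06 (SE, 6 runs; edgeR adjusted p = 0.00689). Of 17 genes listed, 16 were tested and 4 passed (25%), all of them higher, against 0.520% of all genes tested. The median of the list was 0.11. SREBF2 and SREBF1, the genes for the SREBP factors themselves, were higher in 6 of 6 runs without passing the test, with log2 fold changes of 0.14 (adjusted p = 0.0939) and 0.09 (adjusted p = 0.273) in edgeR's fit. SCAP, MBTPS1 and MBTPS2, which escort and cleave SREBP, had values of -0.01, 0.00 and -0.01.

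Of 22 enzymes of sterol synthesis, all tested, 10 rose (45.5%, against 0.520% of all genes tested). The other 12 did not pass, and the median log2 fold change was 0.19. It was 0.21 in replicates 4 and 5 and 0.18 in the others. HMGCS1, which makes HMG-CoA, had 60.9, 71.7 and 104 CPM (lowest, median and highest of 6) without and 80.7, 93.5 and 143 CPM with LCL521. The ranges overlapped, and 6 of 6 runs were higher. Its log2 fold change was 0.37 ± 0.05 (SE, 6 runs; edgeR adjusted p = 0.00474).

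At the start of the pathway ACAT2, the cytosolic thiolase, had 6.15, 12.01 and 19.4 CPM (lowest, median and highest of 6) without and 10.7, 14.5 and 30.5 CPM with LCL521. Its log2 fold change of 0.43 ± 0.09 (SE, 6 runs; edgeR adjusted p = 0.0309) was the largest of the list, with single runs between 0.11 and 0.79. MVK and MVD, which act on mevalonate, rose by 0.36 and 0.31 on the log2 scale, and IDI1, which makes dimethylallyl diphosphate, by 0.39. Of the enzymes that form squalene and close its rings, FDFT1 rose by 0.24, SQLE by 0.26 and LSS by 0.23. Of those that turn lanosterol into cholesterol, MSMO1 rose by 0.34 and DHCR7 by 0.27. Adjusted p-values of these 8 genes lay between 0.00713 and 0.0451 in edgeR's test, and each was higher in 6 of 6 runs. The other 12 enzymes did not pass. HSD17B7 and SC5D were higher in 6 of 6 runs with log2 fold changes of 0.25 and 0.15, CYP51A1 had 0.03, and PMVK had -0.14 and was lower in 6 of 6 runs. The number that passed depended most on replicates 4 and 5: it was 4 without replicate 4 and 2 without replicate 5. With any other replicate left out it lay between 7 and 9.

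Of the fatty acid genes, those for desaturation and 1 phosphatase rose. SCD, which desaturates stearoyl-CoA, had 354, 416 and 535 CPM (lowest, median and highest of 6) without and 453, 502 and 619 CPM with LCL521. It was higher in 6 of 6 runs with overlapping ranges, and its log2 fold change was 0.29 ± 0.04 (SE, 6 runs; edgeR adjusted p = 0.00689). LPIN1, a phosphatidate phosphatase, rose by 0.37, and the desaturases FADS2 and FADS1 by 0.22 and 0.17 (adjusted p = 0.00741, 0.0204 and 0.0388 in edgeR's test). These were the 4 of 20 genes tested, of 23 listed, that passed (20%, against 0.866% of all genes tested). The median of the list was 0.08. Among 13 of 16 genes of cholesterol efflux and LXR response, none rose and 1 fell, CAV1, the caveolae protein, at -0.18 (adjusted p = 0.0445 in edgeR's test). ABCA1, which exports cholesterol to lipoprotein, had a median of 1.37 CPM without and 1.33 CPM with LCL521.

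**Figure D2:**
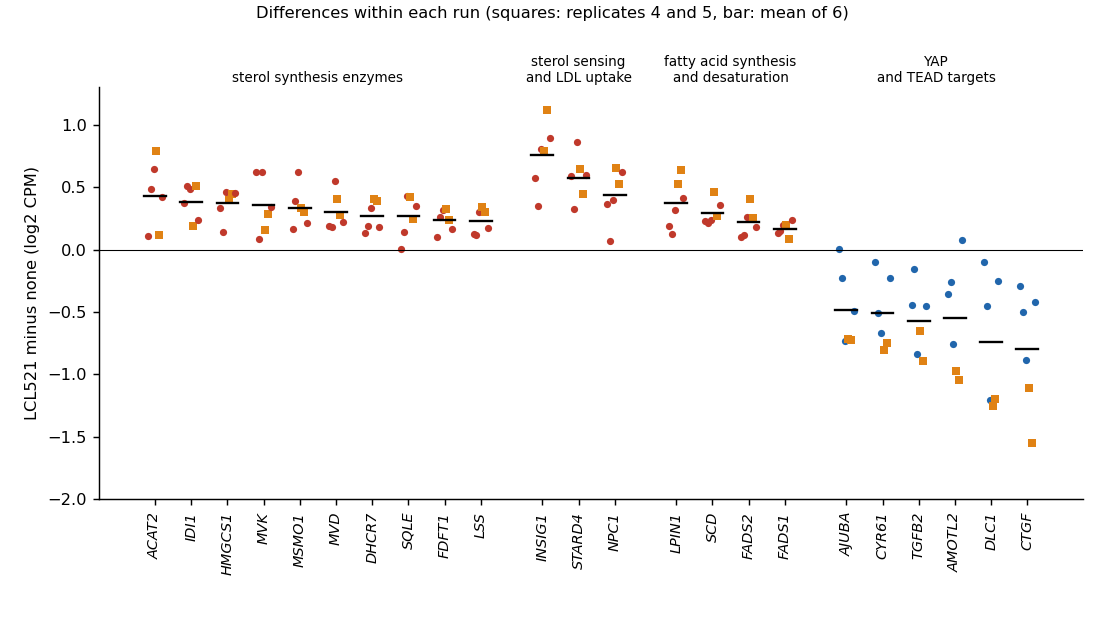
Difference of log2 CPM within each run (LCL521 minus none, vertical axis) for genes that passed in 4 lists, 6 points a gene, with replicates 4 and 5 as squares and the mean as a bar. All points of the sterol and fatty acid genes lie at or above 0, and those of the YAP and TEAD genes lie below 0 except 1 run each of AJUBA and AMOTL2.

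A few genes of the lysosome and of its nutrient sensors rose, against a small shift of their lists. RRAGC (ENSG00000116954, hg19 chromosome 1 from 39303870 to 39325495), a Rag GTPase that tethers mTORC1 to lysosomes, had 25.4, 28.2 and 29.95 CPM (lowest, median and highest of 6) without and 29.8, 34.9 and 46.00 CPM with LCL521. The lowest library with LCL521 lay just below the highest without it, and the other 5 lay above the whole untreated group. Its log2 fold change was 0.38 ± 0.07 (SE, 6 runs; edgeR adjusted p = 0.0170), and it was 0.60 in replicates 4 and 5 and 0.26 in the others, as mean differences within runs. FNIP1, a partner of folliculin that acts on RRAGC, rose by 0.31 (adjusted p = 0.0309 in edgeR's test). No other gene passed among the 35 nutrient sensing genes tested, of 38 listed, whose median was 0.04. TFE3 and TFEB had log2 fold changes of 0.00 and -0.07.

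Among lysosomal hydrolases and membrane proteins, 3 of 62 tested of 74 listed rose (4.84%, against 0.520% of all genes tested). None fell, and the median was 0.05. MCOLN3, an endolysosomal cation channel, had 1.96, 2.24 and 3.09 CPM (lowest, median and highest of 6) without and 2.83, 3.61 and 5.49 CPM with LCL521, near the lower end of what was tested. Its groups overlapped slightly, and its log2 fold change was 0.71 ± 0.13 (SE, 6 runs; edgeR adjusted p = 0.0171). NEU1, the lysosomal sialidase, rose by 0.22 (adjusted p = 0.0408 in edgeR's test), and NPC1 was the third. CLCN6 and CLCN7, chloride transporters of late endosomes and lysosomes named after their values were seen, rose by 0.35 and 0.17 on the log2 scale. None of 18 vacuolar ATPase subunits tested, of 25, passed in edgeR, DESeq2 or limma-voom, and 2 had an unadjusted p under 0.05 (median 0.05). RB1CC1, a scaffold of the complex that starts autophagy, rose by 0.25 (adjusted p = 0.0204 in edgeR's test) and was the 1 of 47 autophagy genes tested, of 51, that passed (median 0.04).

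STX3 (ENSG00000166900, hg19 chromosome 11 from 59480929 to 59573354), a syntaxin of the plasma membrane, had 37.5, 39.6 and 51.5 CPM (lowest, median and highest of 6) without and 43.3, 51.4 and 69.4 CPM with LCL521. Replicates 4 and 5 were the highest in both groups, and 6 of 6 runs were higher with LCL521. The log2 fold change was 0.36 ± 0.06 (SE, 6 runs; edgeR adjusted p = 0.00713), and it was 0.46 in replicates 4 and 5 and 0.31 in the others, as mean differences within runs. No other gene passed among 28 syntaxins and SNARE partners tested, of 33, whose median was 0.03. STX4 and STX1A, other syntaxins of the plasma membrane, had log2 fold changes of 0.00 and 0.08.

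**Figure D3:**
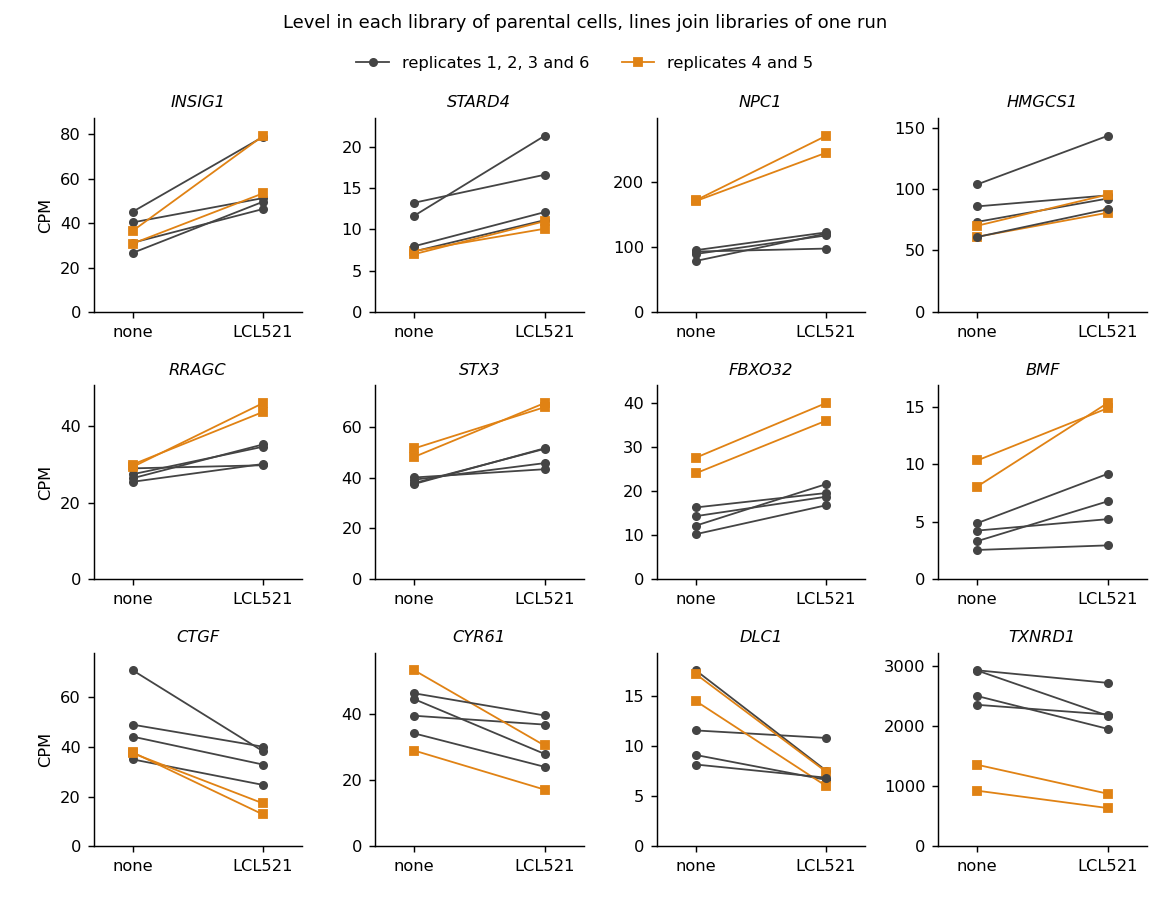
Level of 12 named genes (CPM, vertical axes from 0) in each parental library without and with LCL521, with a line for each run and orange squares for replicates 4 and 5. The lines of the first 8 genes rise and those of the last 4 fall in 6 of 6 runs. The starting levels of most of them, FBXO32, BMF and TXNRD1 included, differ more between runs than with LCL521.

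Several of the largest rises lay outside lipid metabolism. BMF, which binds and neutralizes survival members of the BCL2 family, had 2.54, 4.54 and 10.3 CPM (lowest, median and highest of 6) without and 2.93, 7.96 and 15.3 CPM with LCL521. Its starting level differed widely between runs and the groups overlapped, but 6 of 6 runs were higher, with a log2 fold change of 0.69 ± 0.11 (SE, 6 runs; edgeR adjusted p = 0.00901). BCL2L1, a survival member, fell by 0.33 on the log2 scale, from a median of 192 to 138 CPM (adjusted p = 0.00713 in edgeR's test). These were the 2 genes that passed among 20 of 25 BCL2 family genes (10%, against 0.866% of all genes tested), whose median was 0.00.

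FBXO32, the ubiquitin ligase adaptor atrogin-1 and a classical FOXO target, had 10.2, 15.3 and 27.6 CPM (lowest, median and highest of 6) without and 16.8, 20.6 and 39.98 CPM with LCL521. The 2 highest libraries of either group were replicates 4 and 5, and the log2 fold change was 0.55 ± 0.07 (SE, 6 runs; edgeR adjusted p = 0.00652). KLHL24, another ligase adaptor of the FOXO list, had 8.36, 14.5 and 61.4 CPM (lowest, median and highest of 6) without and 16.2, 21.8 and 83.2 CPM with LCL521. Its log2 fold change was 0.60 ± 0.09 (SE, 6 runs; edgeR adjusted p = 0.00713), and it was 0.43 in replicates 4 and 5 and 0.76 in the others, as mean differences within runs. These were the 2 of 19 FOXO and PI3K feedback genes tested, of 23, that passed (10.5%, against 0.866% of all genes tested). The median of the list was 0.06. IRS2 and CCNG2 had 0.36 and 0.31 and did not pass (edgeR adjusted p = 0.211 and 0.0524).

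CREBRF, a regulator of the CREB3 factor, had 3.43, 4.33 and 23.4 CPM (lowest, median and highest of 6) without and 6.58, 8.00 and 30.1 CPM with LCL521. Replicates 4 and 5 lay far above the others in both groups, the log2 fold change was 0.64 ± 0.11 (SE, 6 runs; edgeR adjusted p = 0.0125), and it was 0.36 in replicates 4 and 5 and 0.91 in the others, as mean differences within runs. RGS4, which switches off G protein signals, rose by 0.48, RTN4R, the Nogo receptor, by 0.43, and ABTB1 by 0.45, with adjusted p-values between 0.00713 and 0.0431 in edgeR's test. Each of these 3 genes was higher in 6 of 6 runs.

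Few stress genes passed edgeR's test, between 2.38% and 12% of the genes tested of each list, against 0.866% of all genes tested. Of the ATF4 and integrated stress genes, 1 of 42 tested of 43 passed, GDF15, which rose by 0.34 (adjusted p = 0.0394 in edgeR's test) and is also on the p53 list, where 1 of 28 tested of 30 passed. Its difference lay between 0.08 and 0.79 in single runs, and the medians of the ATF4 and p53 lists were -0.04 and 0.01. In DESeq2 with the same block GDF15 did not pass (adjusted p = 0.0793), so that the counts of both lists were 0 there. In edgeR it did not pass without replicate 1, 3, 4, 5 or 6, and its adjusted p lay between 0.0299 and 0.111 with each replicate left out in turn. Of the ATF4 list 13 genes and of the p53 list 5 had an unadjusted p under 0.05, beside 1648 of all 13277 genes tested. DDIT4 and SESN2, other stress genes, had log2 fold changes of -0.02 and -0.17. ERN1, the endoplasmic reticulum stress sensor IRE1, and EDEM1, which helps remove misfolded glycoproteins, rose by 0.36 and 0.28 (adjusted p = 0.0309 and 0.00689 in edgeR's test), as 2 of 26 genes tested of 28, with a median of -0.02. HMOX1, heme oxygenase, and NDRG1, which responds to hypoxia and iron loss, rose by 0.26 and 0.31.

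TXNRD1, a thioredoxin reductase driven by NRF2, went the other way, with 927, 2433 and 2935 CPM (lowest, median and highest of 6) without and 638, 2070 and 2726 CPM with LCL521. Replicates 4 and 5 were the lowest in both groups, and the log2 fold change was -0.36 ± 0.06 (SE, 6 runs; edgeR adjusted p = 0.0141). With HMOX1 and NDRG1 it made 3 of 25 genes tested of 35 on the NRF2, iron and metal list, whose median was -0.01. IFIT2, an interferon-stimulated gene, rose by 0.33 (adjusted p = 0.0138 in edgeR's test) as 1 of 28 genes tested of 47 (median 0.06). HSPA1A, the inducible HSP70, fell by 0.30 (adjusted p = 0.00713 in edgeR's test), and its reads may have been split with the near-identical HSPA1B, at -0.22. Of 25 heat shock genes tested, of 26, it was the 1 that passed in edgeR, while 5 passed in DESeq2, 2 in limma-voom and 4 in edgeR with the correction for gene length. The median was -0.11, which was -0.02 in replicates 4 and 5 and -0.14 in the others, and 7 of the 25 were lower in 6 of 6 runs.

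The genes that fell included 6 of 28 YAP and TEAD targets tested, of 33 listed (21.4%, against 0.346% of all genes tested). None of the list rose. CTGF (ENSG00000118523, hg19 chromosome 6 from 132269316 to 132272513), a secreted matricellular protein, had 34.99, 40.99 and 70.9 CPM (lowest, median and highest of 6) without and 12.8, 28.8 and 40.1 CPM with LCL521. The 2 lowest libraries with LCL521 were replicates 4 and 5, at 17.3 and 12.8 CPM, and the ranges of the groups overlapped. The log2 fold change was -0.76 ± 0.12 (SE, 6 runs; edgeR adjusted p = 0.00713), and it was -1.33 in replicates 4 and 5 and -0.52 in the others, as mean differences within runs. CYR61, its relative, had 28.9, 41.9 and 53.1 CPM (lowest, median and highest of 6) without and 17.1, 29.1 and 39.5 CPM with LCL521. It was lower in 6 of 6 runs, with a log2 fold change of -0.50 ± 0.08 (SE, 6 runs; edgeR adjusted p = 0.00902).

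DLC1, a GTPase-activating protein, had 8.16, 13.03 and 17.6 CPM (lowest, median and highest of 6) without and 6.02, 7.15 and 10.8 CPM with LCL521. The 4 highest libraries without LCL521 lay above the whole group with it, and the log2 fold change was -0.76 ± 0.15 (SE, 6 runs; edgeR adjusted p = 0.0204). TGFB2, a secreted growth factor, fell by 0.55 on the log2 scale. AMOTL2 and AJUBA, which act in the Hippo pathway that restrains YAP, fell by 0.59 and 0.48 and were lower in 5 of 6 runs each. Adjusted p-values of these 3 genes were 0.00713, 0.0309 and 0.0103 in edgeR's test, and the exact permutation test over runs gave p = 0.0625 for each of the last 2. The median of the list was -0.10, and it was -0.02 in replicates 4 and 5 and -0.12 in the others. The 6 genes that fell did so more strongly in replicates 4 and 5, where CTGF, DLC1 and AMOTL2 had mean differences of -1.33, -1.22 and -1.01 against -0.52, -0.50 and -0.32, a difference that was not tested. Without replicate 5, 2 of the list passed, and without replicate 4, 3 passed. With any other replicate left out, 5 or 6 passed. YAP1, WWTR1 and TEAD1, the factors themselves, had log2 fold changes of 0.09, 0.09 and 0.02.

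PTX3, a secreted pentraxin, had the lowest log2 fold change of all genes that passed. It had 4.33, 5.98 and 14.4 CPM (lowest, median and highest of 6) without and 2.53, 4.24 and 7.66 CPM with LCL521. The ranges overlapped, 6 of 6 runs were lower, and the log2 fold change was -0.81 ± 0.14 (SE, 6 runs; edgeR adjusted p = 0.0138). PI3, the protease inhibitor elafin, fell by 0.46, FST, which binds activin, by 0.42, LPPR5 by 0.50, CNIH3 by 0.38, C19orf21 by 0.35 and AOX1, an aldehyde oxidase, by 0.35. Their adjusted p-values lay between 0.00713 and 0.0486 in edgeR's test, and each was lower in 6 of 6 runs. FOSL1, an AP-1 subunit, fell by 0.24 (adjusted p = 0.0204 in edgeR's test) and was the 1 of 36 immediate early and serum response genes tested, of 40, that passed, with a median of 0.02. Named after their values were seen, TUBB4B and TUBA1C, which encode tubulins, fell by 0.25 and 0.22, EZR, which links actin to the membrane, by 0.20, and SFN, an epithelial 14-3-3 protein, by 0.20. The reads of the tubulin genes may have been split with close paralogs.

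In edgeR no gene passed in the lists of proliferation and basal metabolism. Medians were -0.04 over 54 S phase genes and -0.07 over 53 mitotic genes, all tested. Of the S phase genes 1 passed in DESeq2, in limma-voom and with the correction for gene length, and 6 had an unadjusted p under 0.05. Of the mitotic genes none passed in these fits, and 3 had an unadjusted p under 0.05. The 28 glycolysis genes tested of 31 had a median of -0.07, with 5 lower in 6 of 6 runs, and 78 cytosolic ribosomal protein genes of 79 had -0.03. The 13 genes of the mitochondrial chromosome tested of 15 lay below 0 with a median of -0.06, but none was lower in 6 of 6 runs. The share of reads on that chromosome was 1.12% to 4.33% without and 0.954% to 4.23% with LCL521. Runs moved opposite ways: this share went from 1.39% to 3.06% with LCL521 in replicate 3 and from 3.31% to 1.42% in replicate 6. Among 26 of 40 NF-kappaB feedback and secreted inflammatory genes, none passed in edgeR or limma-voom, 1 passed in DESeq2 and 1 with the correction for gene length, and 5 had an unadjusted p under 0.05. The median was -0.09, and it was 0.03 in replicates 4 and 5 and -0.13 in the others. Of the glycolysis, ribosomal protein and mitochondrial lists none passed in DESeq2 or limma-voom, and 10, 1 and 0 genes had an unadjusted p under 0.05. Over all genes tested 1648 of 13277 had one in edgeR.

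**Figure D4:**
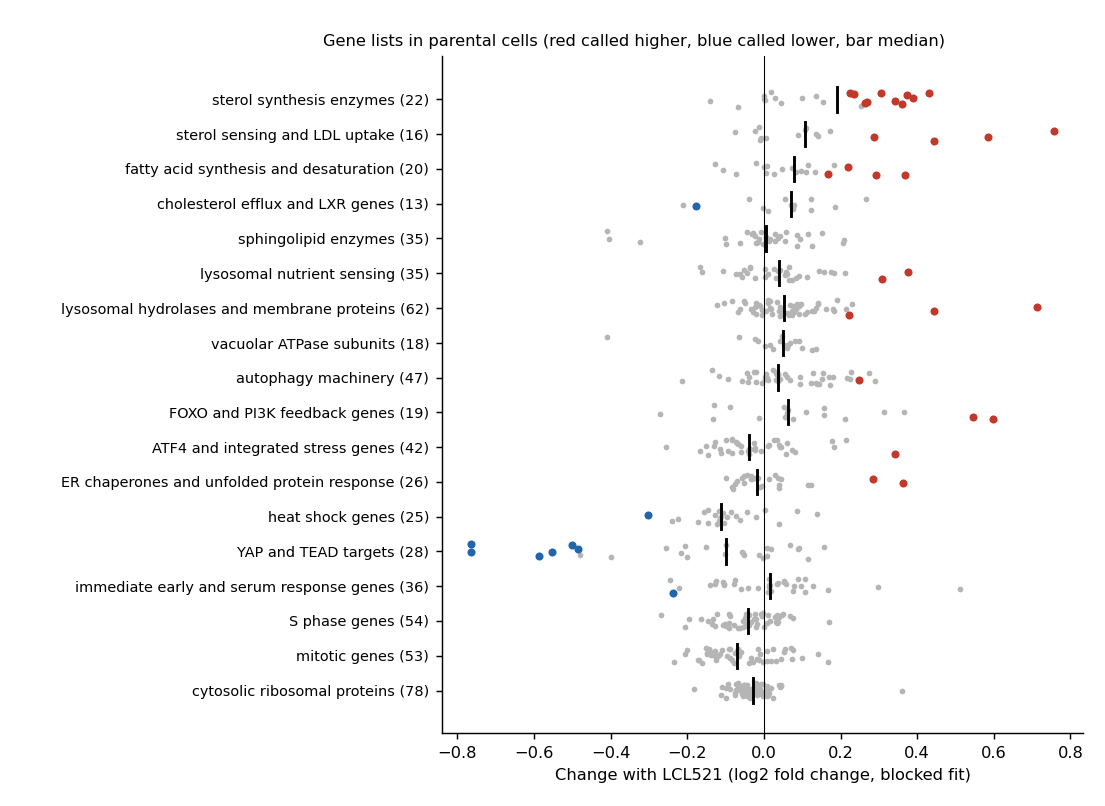
Log2 fold change with LCL521 in parental cells (horizontal axis) of the tested members of 18 gene lists, their number in brackets, with a black bar at each median. Sterol synthesis enzymes sit farthest to the right with a median of 0.19, while heat shock genes and YAP and TEAD targets sit farthest to the left with -0.11 and -0.10.

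Further genes that passed were named after their values were seen. FAM46C had 25.8, 28.7 and 30.6 CPM (lowest, median and highest of 6) without and 32.3, 36.6 and 41.4 CPM with LCL521. Its groups did not overlap, and its log2 fold change was 0.35 ± 0.06 (SE, 6 runs; edgeR adjusted p = 0.0130). RDH10, which oxidizes retinol, rose by 0.42 on the log2 scale, and ALDH1A3, which makes retinoic acid, fell by 0.22. Among ephrins, EFNA1 rose by 0.32 and EFNB2 fell by 0.32 on the same scale. The related orphan receptors GPRC5C and GPRC5A also went opposite ways, with log2 fold changes of 0.19 and -0.30. RGS2, a relative of RGS4, fell by 0.38 (log2) where RGS4 rose, and was lower in 5 of 6 runs.

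Several further genes for secreted, surface and nuclear proteins passed. VEGFC, a growth factor of lymphatic vessels, fell by 0.28 on the log2 scale, PLAT, tissue plasminogen activator, by 0.29, TNFRSF12A, the TWEAK receptor, by 0.25 and CDH11, a cadherin, by 0.20. NCEH1, which hydrolyses cholesteryl esters, fell by 0.30 (log2). The transcription factors ETS1 and KLF5 fell by 0.30 and 0.30 (log2). On the side of the genes that rose were BMP3, a secreted factor, at a log2 fold change of 0.29, EDNRA, an endothelin receptor, at 0.25, and KRT15, a keratin, at 0.36. From VEGFC to KRT15, each of these genes moved the same way in 6 of 6 runs. CPA4, a carboxypeptidase, had a log2 fold change of -0.60 but lay between 0.451 and 24.7 CPM without LCL521, and 5 of 6 runs were lower.

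Gene length differed between the directions and is given as a measured fact. The median length of the genes that rose was 4025 bases and that of the genes that fell 2750.5 bases, beside 3280 bases over all genes tested. The Spearman correlation of the change with length lay between -0.27 and 0.33 over the 6 runs. With a correction for length in each library, all 115 genes passed among 234, and 49.1% of the 234 were higher, against 60% of 115. Scaled by library totals in place of TMM, 89 genes passed, of which 70 (78.7%) were higher, and the median over all genes tested moved to 0.02.

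The same exposure in PGCC, measured on libraries that the parental comparison does not use, gave values in the same direction for most of these genes. In PGCC 153 genes rose (1.08% of 14151 tested) and 81 fell (0.572%) in the same blocked fit. Of the 69 genes that rose in parental cells, 68 had a higher value in PGCC and 45 passed there. Of the 46 that fell, 44 had a lower value in PGCC and 21 passed. The share of all genes tested with the same sign in both populations is not given here, so these counts of signs have no baseline. The medians in PGCC were 0.25 for the genes that rose in parental cells and -0.13 for those that fell. Since the genes were chosen on parental values, the medians of both populations cannot be set against each other.

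INSIG1 had log2 fold changes of 0.76 in parental cells and 0.67 in PGCC, RRAGC of 0.38 and 0.38, STX3 of 0.36 and 0.39, and BMF of 0.69 and 0.69. CTGF had -0.76 and -0.36, and RGS4 had 0.48 and 0.12. The difference between populations was tested for each gene in 1 model over all 24 libraries. No gene of 14555 passed after adjustment in edgeR, where the smallest adjusted p was 0.739, or in DESeq2, while 561 (3.85%) had an unadjusted p under 0.05 in edgeR and 283 in DESeq2. With no filter on counts, 21 of 32207 genes passed in edgeR, among them CTGF, RGS4, IFIT2, SCN9A and several mitochondrial genes. No other setting tried gave any. IFIT2 had the smallest p, with 0.33 in parental cells and 0.01 in PGCC. SCN9A, also among the 3 smallest, had too few reads in parental libraries to be tested there.

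**Figure D5:**
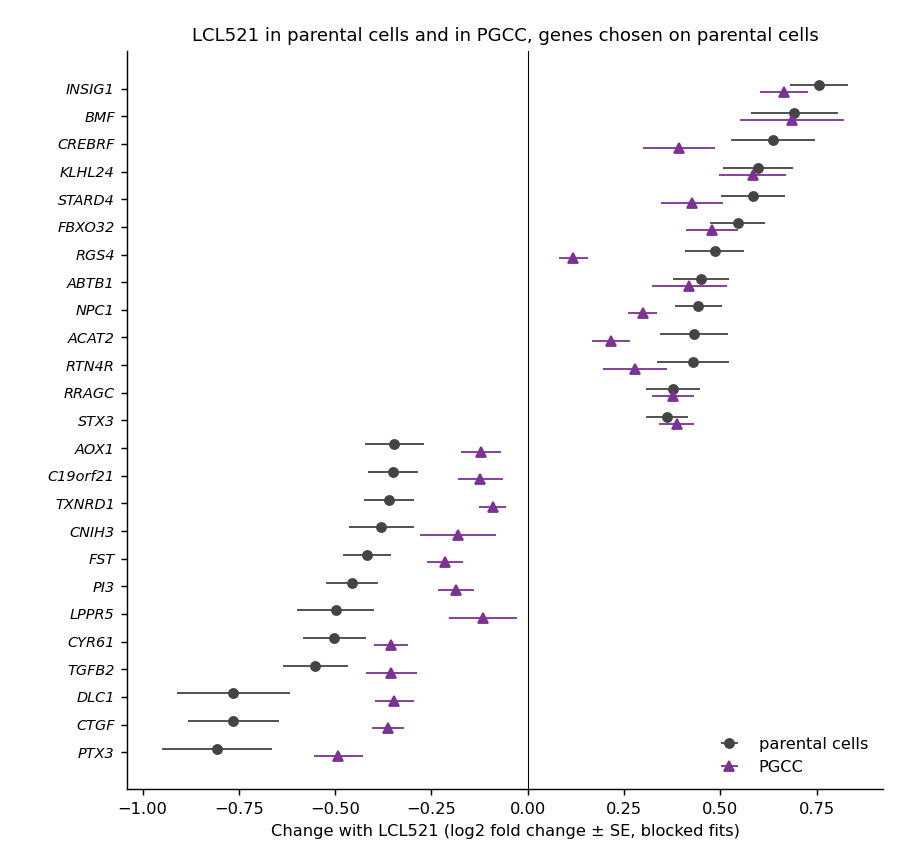
Log2 fold change with LCL521 (horizontal axis, bars 1 standard error) in parental cells (circles) and in PGCC (triangles) for 25 genes that passed in parental cells and had the largest changes or are named by the study. The study named INSIG1, RRAGC and STX3 as raised by LCL521 in PGCC and reported no significant change in parental cells. All 25 lie on the same side of 0 in both populations, and the genes were chosen on their parental values.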

How the data were processed

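Of 24 RNA-seq libraries from PPC1 cells, 6 for each of 4 conditions, the 12 of parental cells were used here. The authors deposited read counts per gene, whole numbers without normalization, together with gene lengths and coordinates. By the submitters' processing notes and the study's methods, paired-end reads were aligned to hg19 with STAR and counted with HTSeq. The annotation release and whether reads were counted by strand are not given in the sources used here, so overlapping genes and close paralogs are uncertain.

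Counts were analysed in R 4.3.3 with edgeR 4.0.16 (filterByExpr, minimum count 10 and minimum total 15, TMM, quasi-likelihood test with the replicate number as a block) and Benjamini-Hochberg adjustment over all genes tested, at a threshold of 0.05. CPM are counts relative to the TMM-scaled library size, and log2 CPM carry a prior count of 2. Standard errors were obtained as the absolute log2 fold change over the root of the F statistic. PGCC were fitted in the same way, and the difference between populations was tested over 24 libraries with a block within each population. Single genes were also tested with exact permutation tests. Alternatives used DESeq2 1.42.0, limma 3.58.1, other scalings and filters, no block, and each replicate left out. The tests were checked on simulated counts.

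Same-numbered libraries deviated together from their condition means (correlation over genes between 0.557 and 0.869 in the 6 pairs), and the series' design text says that a number marks a run. Differently numbered pairs had a median of -0.395 but reached 0.690, above the lowest same-numbered pair. Each of the 6 libraries with LCL521 correlated most with the untreated library of its own number. Libraries of 1 condition differed beyond sampling noise (chi-square per degree of freedom between 9.77 and 109.8 in 30 pairs), so none was counted as a duplicate. The runs are described as independent, but no source says that they began from separately thawed cells.

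The genes and lists were chosen with earlier results of these data known. Named genes are ASAH1 and genes named by the study, the 12 largest rises and 12 largest falls among genes that passed, with 1 direction in 6 of 6 pairs and a mean of at least 2 log2 CPM, the 5 smallest p-values, up to 4 genes that passed in each list, and the 3 smallest p-values of the difference between populations. Other names were added after values were seen, among them MVD, FDFT1, SQLE, LSS, MSMO1, DHCR7, AJUBA and list members that did not pass. The values of 3 genes named by this rule are not reported here. Promoter stretches are from RefSeq, and the table held 10018 of the 13277 genes tested.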

Additional observations from a re-analysis of the deposited data

Results flagged for a closer look

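In 4 of 114 groups of 6 libraries, over 57 named genes, 1 library lay farther from the rest than Dixon's 95% limit allows. Chance alone gives about 1 in 20 groups. All 4 are parental libraries with LCL521. Replicate 1 had 10.8 CPM of DLC1, above the next value of 7.56, and 36.0 CPM of C19orf21, above 29.0. Both genes fell, and this library lay nearest to the untreated group. Replicate 3 had 143 CPM of HMGCS1, above the next value of 95.5, and 84.6 CPM of MVD, above 65.9. Both are enzymes of the mevalonate pathway and rose in 6 of 6 runs.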

How the results depend on the processing

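The number of genes that passed in parental cells (115, 69 higher and 46 lower) depended on the settings, while the direction did not: every one of the 115 that could be tested kept its sign in each alternative. The alternatives use the same libraries on which the genes were called, so a kept sign is no separate support. Without the replicate block 0 genes passed in edgeR and 0 in DESeq2. DESeq2 with the block gave 168, of which 79 were lower, and library totals gave 19 lower genes. No filter gave 337 (178 higher, 159 lower), all 24 libraries in 1 fit 261 (117 higher, 144 lower) and the correction for gene length 234 (115 higher, 119 lower). Replicates 4 and 5 alone gave 343 (214 higher, 129 lower), and leaving both out gave 3 (2 higher, 1 lower). With each replicate left out in turn, between 26 and 112 genes passed, 18 to 71 higher and 8 to 41 lower. Other scalings, limma-voom and a filter of 10 counts in every library gave between 111 and 128 genes. In PGCC 234 genes passed with the block and 1 without it. For the difference between populations 0 genes passed, except 21 with no filter, CTGF, RGS4 and IFIT2 among them. The cause of these moves was not tested, and fits on fewer libraries also differ in residual degrees of freedom. Depth limits genes with few reads, such as ABCA1 and MCOLN3.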
